A study of Mus musculus with 4 samples.

Results

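The genes described are 10 markers of the hair follicle bulge and of the stem cells beside it: Lhx2, Tbx1, Runx1, Sox9, Nfatc1, Foxc1, Cd34, Lrig1, Cdh3 and Krt15. They were found by gene name among the non-control probes of a mouse whole-genome array, which gave 14 probes of 41174, for 10 of the 28034 gene names on the array. Of the 10 genes, 7 had 1 probe and 3 (Sox9, Runx1 and Nfatc1) had more. RNA came from full-thickness dorsal skin of male mice 42 days old, labelled as C57BL/6 and as telogen, in which follicles rest. In one group, called cKO, Fgf18 was deleted conditionally in keratin 5-positive epithelium. The other group, called WT, was C57BL/6 mice, and the labels give no floxed allele or Cre for it. Each group is 1 pool of polyA RNA from 3 mice, measured on 2 arrays with Cy3 as the only dye. Standard errors, standard deviations and p-values therefore measure the spread between duplicate arrays of 1 pool, the tests compare 2 pools, and the variation from mouse to mouse is unknown.

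The bulge is the part of the outer root sheath that holds slow-cycling stem cells between growth phases, and below it lies the hair germ, whose cells divide first when a new hair starts to grow. Transcription factors such as LHX2, SOX9, TBX1, NFATC1 and FOXC1 are known to maintain these cells or keep them quiet, and RUNX1 is known to help them enter the next growth phase. CD34 marks the mouse bulge, LRIG1 the junctional zone above it and P-cadherin the hair germ, while keratin 15 is made in bulge cells and in other basal cells. None of these genes is restricted to the bulge in whole skin: CD34 is also a protein of vessels and of dermal cells, RUNX1 of blood cells and of the growing follicle, and P-cadherin of the hair matrix.

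Across the 4 arrays the 75th percentile of the processed signal lay between 1271 and 1453, and well above background were 62.1% to 69.1% of the spots other than controls. Each value below was divided by that percentile of its array and put on the log2 scale, and is called the scaled log2 level. A probe was called higher or lower at a limma adjusted p under 0.05 with at least 1.5-fold between the pools, and rose and fell are used only for such probes. The cKO pool, although labelled telogen, carried genes of the growing follicle. All 6 measured hair shaft keratins rose, 3 of them from signals not well above background in WT, and 5 of 6 inner root sheath genes rose. By their brightest probe, 5.64% of 17555 genes were called higher and 4.8% lower. The summed scaled signal of the inner root sheath list was 223 and 220 in the cKO pool, against 4.62 and 4.57 in WT. That of 6 proliferation genes was 15.1 and 13.6 against 6.21 and 6.78. The part of this difference in the bulge marker values was not tested. In bulk skin, fewer cells of a type and less RNA per cell cannot be told apart.

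Of the 14 marker probes, 4 rose in the cKO pool and none fell. They belonged to Cdh3, Runx1, Tbx1 and Lhx2 and made up 28.6% of the marker probes, beside 4.92% of all 26070 probes tested that were called higher and 4.8% that were called lower. By limma, 3 marker probes were lower at an adjusted p under 0.05 without reaching 1.5-fold, the same number as at an unadjusted p under 0.05, and 8 were higher at an adjusted p under 0.05, those 4 included. Of all probes tested, 19.2% were higher and 31.1% lower by that rule. Both cKO arrays lay above both WT arrays on 9 marker probes and below them on 4, beside 32% and 47.8% of all probes. All 14 probes were well above background on all 4 arrays, so none entered through 1 group alone. By the brightest probe of each gene the median log2 difference of the 10 markers was 0.30, beside -0.05 over 17555 genes.

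**Figure D1:**
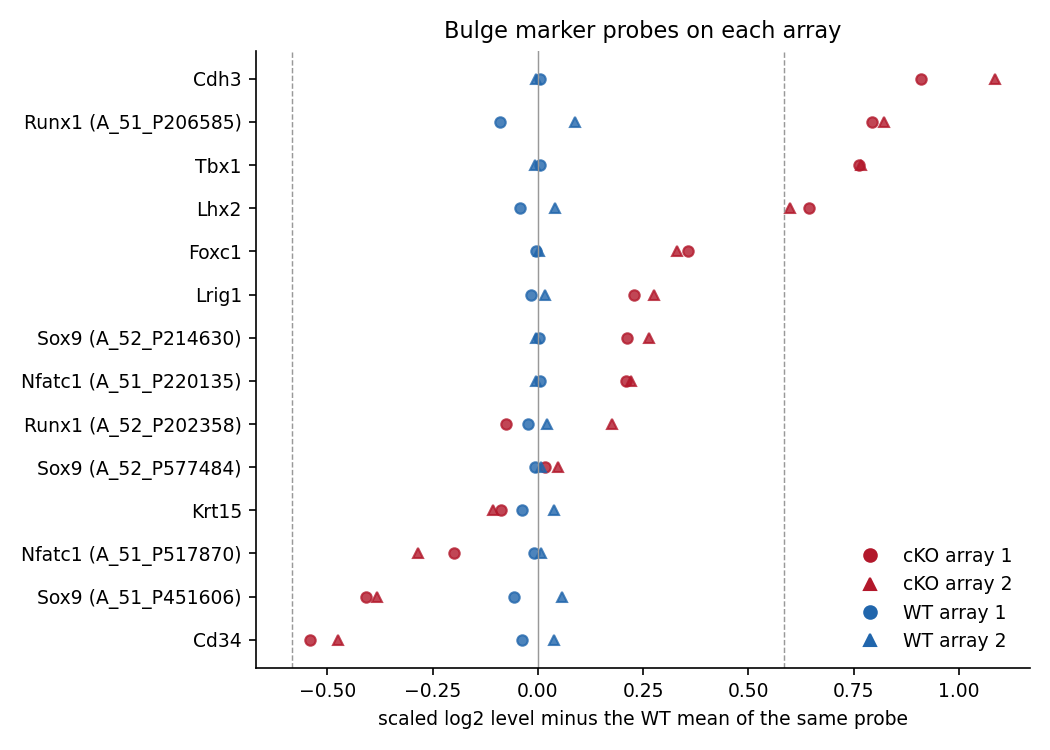
Scaled log2 level of each bulge marker probe on each array, minus the mean of the 2 WT arrays for that probe; circles are array 1 and triangles array 2 of each pool, and dashed lines mark 1.5-fold. The cKO arrays of Cdh3, Runx1 (A_51_P206585), Tbx1 and Lhx2 lie beyond the right dashed line, no probe lies beyond the left one, and Cd34 comes closest to it at -0.51.

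Among the transcription factors, Tbx1 had the smallest spread between duplicates. Tbx1 is a T-box factor that is known to favour self-renewal of bulge stem cells. Its probe lies at chromosome 16 from 18581816 to 18581875 on mm9 and gave a processed signal of 28647 and 29784 for cKO, and of 15379 and 15776 for WT. Both cKO arrays were above both WT arrays, and the gap between the nearest arrays, 0.76 on the log2 scale, far exceeded the largest gap between duplicates, 0.012. Scaled to the array, the mean log2 level was 4.35 ± 0.0034 for cKO against 3.59 ± 0.0088 for WT (SD over n = 2 arrays), and Tbx1 rose 1.70-fold (log2 0.76, SE 0.025, limma adjusted p = 0.0017). Of all probes tested, 4.2% had a log2 difference as high or higher. With normexp background correction and quantile normalization the log2 difference was 0.92.

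Lhx2, a LIM-homeobox factor that is known to hold hair follicle stem cells in their undifferentiated state, rose by little more than the threshold. The processed signal of its probe (chromosome 2, 38224933 to 38224992) was 13994 and 14070 in cKO and 7891 and 8649 in WT. The groups did not overlap. The rise was 1.54-fold (log2 0.62, SE 0.044, adjusted p = 0.0042). Without WT replicate 1 the log2 difference was 0.58, which is just under 1.5-fold, and Lhx2 was then not called (adjusted p = 0.024; range over the alternatives 2.55e-05 to 0.0405). Under the other 15 alternatives it was called, with values up to 0.71.

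Runx1 was measured by 2 probes, and they gave different answers. RUNX1 binds DNA with its partner CBF-beta and is known to act in bulge cells when the follicle is activated. The probe A_51_P206585, at chromosome 16 from 92604413 to 92604472, is listed for 4 Runx1 transcripts. Its processed signal was 549 and 581 in cKO and 270 and 316 in WT. It rose 1.75-fold (log2 0.81, SE 0.074, adjusted p = 0.0062), with a gap of 0.71 between the nearest cKO and WT arrays. The probe A_52_P202358 lay 9590 bases upstream in the direction of transcription, and its genomic ends at 92614003 and 92644455 are 30453 bases apart for a probe of 60 bases, so that it crosses at least 1 intron. On this probe the signal was 287 and 354 in cKO and 270 and 288 in WT. These arrays overlapped, and the log2 difference was 0.05 (SE 0.10, adjusted p = 0.70). On every array the signals of the 2 probes were at least 7.68 and 7.0 times the lowest signal that counted as well above background there, so both were dim. With the mean of both probes the log2 difference was 0.43 and Runx1 was not called (adjusted p = 0.020; range over the alternatives 0.000132 to 0.0478).

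The sequences of the intron-crossing probes of Runx1 and of Sox9 are shown because these are the 2 marker probes that cross an intron by their coordinates and because each differs from its gene's 3′-most probe. Both are given 5′ to 3′ in the sense of the transcript, as listed in the scanner files.
Runx1 A_52_P202358: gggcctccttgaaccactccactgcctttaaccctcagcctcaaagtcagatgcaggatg
Sox9 A_51_P451606: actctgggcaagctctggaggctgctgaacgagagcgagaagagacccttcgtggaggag
The Runx1 probe is 55% G and C and the Sox9 probe 60%, while the 3′-most probes of the same genes, A_51_P206585 and A_52_P214630, have 41.7% and 30%.

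Sox9, an HMG-box factor that is needed to form the bulge and is also made throughout the outer root sheath, was measured by 3 probes on the plus strand of chromosome 11. Their differences ran from negative to positive along the direction of transcription. The intron-crossing probe (112644310 to 112645162, 853 bases for 60 bases of probe) read 853 and 900 in cKO and 986 and 1104 in WT. Both cKO arrays were below both WT arrays, with a log2 difference of -0.39 (SE 0.051, adjusted p = 0.012). The middle probe, A_52_P577484 (112647008 to 112647067), read 1729 and 1832 in cKO and 1541 and 1612 in WT before scaling. Its log2 difference was 0.03 (SE 0.028, adjusted p = 0.39), and the nearest arrays were 0.0087 apart, less than the 0.032 between duplicates.

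The 3′-most Sox9 probe, A_52_P214630 (112648809 to 112648868), was printed on 10 spots of each array, which shows the error within an array. Spot levels ran from 0.80 to 1.0 and from 0.77 to 1.06 on the cKO arrays, and from 0.58 to 0.72 and from 0.59 to 0.75 on the WT arrays. Among the spots used, the lowest in cKO (0.766) lay above the highest in WT (0.754), but 1 outlier spot left out on each WT array, at 0.79, was above that lowest cKO spot, so that with all 10 spots the ranges overlapped. With outlier spots kept, the log2 difference of the probe was 0.24. The spots of 1 array had an SD between 0.043 and 0.079, with 8 to 10 spots used after outliers were left out. The log2 difference was 0.24 (SE 0.032, adjusted p = 0.012), or 1.18-fold. None of the 3 Sox9 probes reached 1.5-fold, and the mean over them was -0.042.

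**Figure D2:**
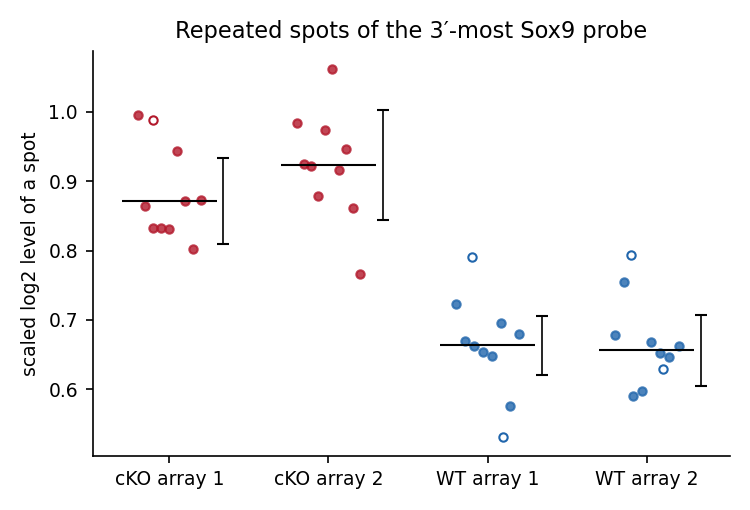
Scaled log2 level of each spot of the 3′-most Sox9 probe on the 4 arrays; filled circles are the spots used, open circles the outlier spots left out, lines the mean and bars the SD over the spots used. The filled cKO spots, from 0.766 upward, lie above the filled WT spots, which end at 0.754, while the highest open WT spots, at 0.79, overlap the cKO range.

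Nfatc1, a calcineurin-dependent factor that is known to keep bulge stem cells quiet, also had 2 probes with opposite signs, and here the order was the reverse of that in Sox9. The upstream probe A_51_P220135 (chromosome 18, 80845439 to 80845498), listed for NM_016791, read 1225 and 1282 in cKO and 965 and 991 in WT. Its log2 difference was 0.22 (SE 0.025, adjusted p = 0.0097). The probe A_51_P517870 (80803664 to 80803723), listed for NM_198429 and lying 41775 bases further along the gene, read 1732 and 1692 in cKO and 1794 and 1878 in WT. Its difference was -0.24 (SE 0.041, adjusted p = 0.020). The accessions name different transcript variants of Nfatc1, neither probe reached 1.5-fold, and the mean of both was -0.014.

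**Figure D3:**
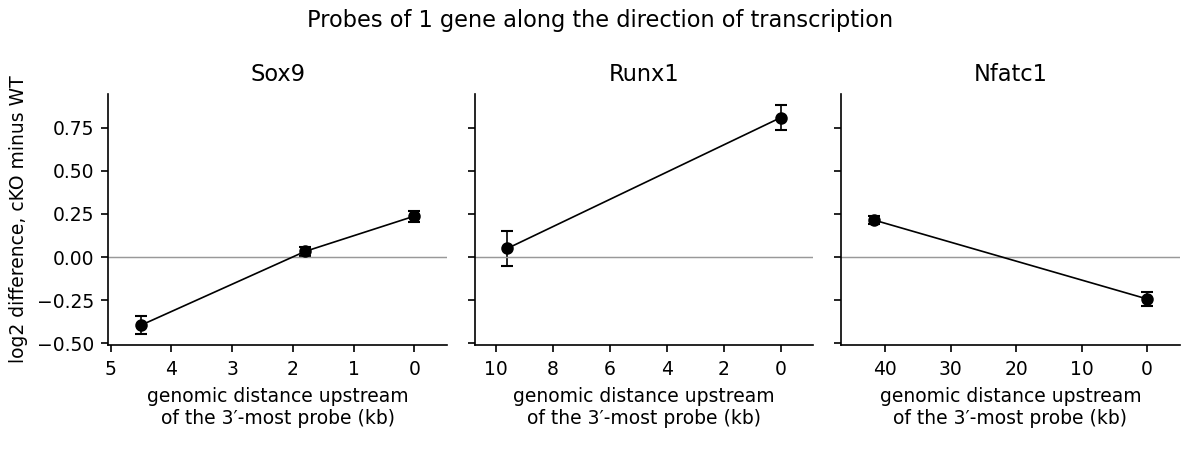
Log2 difference between cKO and WT of each probe of Sox9, Runx1 and Nfatc1, with the SE from limma as bars, against the genomic distance in kilobases upstream of the gene's 3′-most probe (introns included). In Sox9 the values run from -0.39 to 0.24 and in Runx1 from 0.05 to 0.81 toward the 3′ end, while in Nfatc1 they run from 0.22 to -0.24.

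The gap between probes of 1 gene was set against all genes with at least 2 tested probes. Among 6166 such genes the median range between probes was 0.19 on the log2 scale. The ranges of Runx1 (0.76), Sox9 (0.63) and Nfatc1 (0.46) were reached or exceeded by 6.37%, 9.68% and 18% of those genes. Probes on opposite sides of 0, each at an adjusted p under 0.05, were found in 4.57% of the genes, and Sox9 and Nfatc1 were among them. Over 4643 genes whose outermost probes started at least 1000 bases apart on 1 strand, the difference of the 3′-most probe minus that of the 5′-most probe had a median of 0.084 (quartiles -0.078 and 0.28) and was positive in 63.8%. The 3′-most probes thus read relatively higher in the cKO pool over the array as a whole, and its part in the Sox9 and Runx1 values was not tested.

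Foxc1 is a forkhead factor that is known to promote stem cell quiescence. Its signal was 3134 and 3190 in cKO and 2213 and 2301 in WT (chromosome 13, 31901257 to 31901316). The groups were separated by 0.33 with duplicates at most 0.026 apart. The log2 difference of 0.34 (SE 0.027, adjusted p = 0.0048), or 1.27-fold, did not reach the fold threshold under the main scaling or any of the 16 alternatives. Fgf18 itself, whose deletion defines the cKO group, had a log2 difference of -0.33 (SE 0.027, limma adjusted p = 0.0053). Its signals were 5096 and 5293 in cKO and 5748 and 6076 in WT. Whether its probe lies in the deleted segment was not tested, so the value does not measure how complete the deletion was.

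Promoters were read for 6 of the 10 markers from a RefSeq table on GRCm38.p6, as the 250 bases before each annotated start. The 3 printed are those of markers with a higher value in the cKO pool whose window lies outside the whole annotated gene. The letters searched, on both strands, were TGTGGT for RUNX, GGAAAA for NFAT, ACAAAG for SOX, TAATTA for LHX, TGTTTA for forkhead and GGTGTG for T-box factors, and matches are in capitals.
Foxc1 (chr13:31806396-31806645, plus strand): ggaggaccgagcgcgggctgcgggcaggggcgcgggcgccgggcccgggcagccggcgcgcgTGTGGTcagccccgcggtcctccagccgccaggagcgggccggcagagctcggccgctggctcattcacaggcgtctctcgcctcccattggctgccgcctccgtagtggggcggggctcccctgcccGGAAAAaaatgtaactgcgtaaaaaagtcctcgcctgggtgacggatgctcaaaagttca
Runx1 (chr16:92826075-92826324, minus strand): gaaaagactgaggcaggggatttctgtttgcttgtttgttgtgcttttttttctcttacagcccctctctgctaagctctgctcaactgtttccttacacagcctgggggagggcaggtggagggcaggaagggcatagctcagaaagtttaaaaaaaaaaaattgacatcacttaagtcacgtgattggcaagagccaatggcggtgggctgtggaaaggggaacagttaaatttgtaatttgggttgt
Tbx1 (chr16:18590672-18590921, minus strand): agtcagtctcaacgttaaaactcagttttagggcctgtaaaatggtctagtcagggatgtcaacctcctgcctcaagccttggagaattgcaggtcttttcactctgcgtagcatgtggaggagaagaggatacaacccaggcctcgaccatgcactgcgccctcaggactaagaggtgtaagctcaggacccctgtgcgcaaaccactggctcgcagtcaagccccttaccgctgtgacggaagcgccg
The Foxc1 window held the RUNX letters from position -188 and the NFAT letters from position -60, counted back from the start of transcription. Over all 9 windows of the 6 markers, RUNX letters were found in 1, NFAT letters in 2 and T-box letters in 1, and the other 3 sets in none. Among 32851 windows of the same length in the table, the letters were present in 14% (RUNX), 20.4% (NFAT), 16.5% (SOX), 4.84% (LHX), 12% (forkhead) and 16.3% (T-box). The motifs do not overlap in the Foxc1 window, and a match is a description of letters only.

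Of the surface and adhesion proteins, Cdh3 had the largest difference of all markers and the dimmest probe. It encodes P-cadherin, an adhesion protein of the hair germ and of the hair matrix. The processed signal (chromosome 8, 109079493 to 109079553) was 307 and 359 in cKO against 149 and 153 in WT. On every array the signal was at least 3.71 times the lowest signal counted as well above background on that array. The cKO arrays lay 0.91 or more above the WT arrays, while the duplicates of cKO were 0.17 apart. Cdh3 rose 2.0-fold (log2 1.0, SE 0.072, adjusted p = 0.0043), and 2.85% of all probes had a difference as high or higher. It was called under all 16 alternatives, with log2 values from 0.71 (normexp and quantile normalization) to 1.08.

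Lrig1, a transmembrane protein that dampens EGF receptor signalling and marks the junctional zone, read 21493 and 23031 in cKO and 16452 and 17406 in WT (chromosome 6, 94554681 to 94554740). The groups did not overlap. The log2 difference was 0.25 (SE 0.033, adjusted p = 0.012), or 1.19-fold, and was not called. Quantile normalization gave 0.38, also under 1.5-fold. Lrig3, a relative of Lrig1, had 0.37.

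Cd34, which encodes the sialomucin by which mouse bulge cells are commonly sorted, was the marker with the lowest value. Its signal was 90532 and 98152 in cKO and 116284 and 126824 in WT (chromosome 1, 196787392 to 196787451). Both cKO arrays were below both WT arrays by at least 0.44, against 0.076 between duplicates. The log2 difference was -0.51 (SE 0.046, adjusted p = 0.0061), or 1.42-fold lower, and it was not called. This size depended on the normalization, since quantile normalization gave -0.29 and normexp with quantile normalization -0.27. Endothelial genes, which are expressed in cells that also carry CD34, had a negative median as well. So did the lists of fibroblast, muscle, sebaceous gland and adipocyte genes below, and all 17555 genes (-0.05). Of those 17555 genes, 5.64% were called higher and 4.8% lower by their brightest probe. Of 10 endothelial genes, all well above background on all arrays, Emcn fell (log2 -0.79) and none rose, Kdr had -0.50, and the median was -0.25. The summed scaled signal of the endothelial list was 30.8 and 30.5 in cKO and 34.6 and 35 in WT. Podxl, a sialomucin related to CD34, had -0.58 (adjusted p = 0.0097), which was called without cKO replicate 1 (-0.65), without WT replicate 2 (-0.63) and with the mean of its probes (-0.97). Of 7 fibroblast genes Dpt rose and Lum fell by their brightest probes (log2 0.77 and -0.63), with a median of -0.13. The summed signals were 670 and 670 in cKO against 725 and 790 in WT. Dimmer probes of Col1a2, Pdgfra and Col1a1 had values down to -0.82, -0.66 and -0.48, against -0.08, -0.21 and -0.13 by the brightest. The dimmer probe of Thy1 had -0.03 against -0.10. Lum was not called with quantile normalization (-0.44) or with normexp and quantile normalization (-0.43). Skeletal muscle genes had a median of -0.60, with Casq1, Actn3 and Ckm of 6 lower by the call, and sebaceous gland genes a median of -0.48, with Fasn and Soat1 of 6 lower. Awat2 of the sebaceous list went the other way (log2 0.22, limma adjusted p = 0.045) and was not called. The summed signals were 617 and 616 in cKO against 873 and 911 in WT for muscle, and 117 and 113 against 187 and 205 for the sebaceous gland. Most of the sebaceous sum was Fasn, with signals of 91567 and 93976 in cKO against 152823 and 173671 in WT. Of 5 adipocyte genes Lep fell and the median was -0.11. Fabp4, the brightest of them, went the other way (log2 0.19, limma adjusted p = 0.012) and was not called. The summed adipocyte signal was 220.5 and 220.2 in cKO against 208.5 and 210 in WT. The part of vessel, dermal, muscle and gland cells in the Cd34 value was not tested.

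Krt15, the keratin by which bulge cells are commonly traced, was near the same level in both pools. Its signal was 299709 and 306324 in cKO and 281048 and 306297 in WT (chromosome 11, 99993340 to 99993399). Before scaling the arrays overlapped, and after scaling the cKO arrays lay 0.049 below the nearest WT array, within the 0.075 between duplicates. The log2 difference was -0.10 (SE 0.039, adjusted p = 0.12), and it turned to 0.036 with normexp and quantile normalization. Krt5 and Krt14, keratins of all basal cells, had -0.09 and 0.31. The 6 basal keratinocyte genes, these keratins among them, had a median of -0.08, with none called by limma and 2 at an unadjusted p under 0.05. Even at a limma adjusted p under 0.05, 19.2% of all probes tested were higher and 31.1% lower. The summed signal of the basal genes was 331 and 325 in cKO and 322 and 340 in WT.

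**Figure D4:**
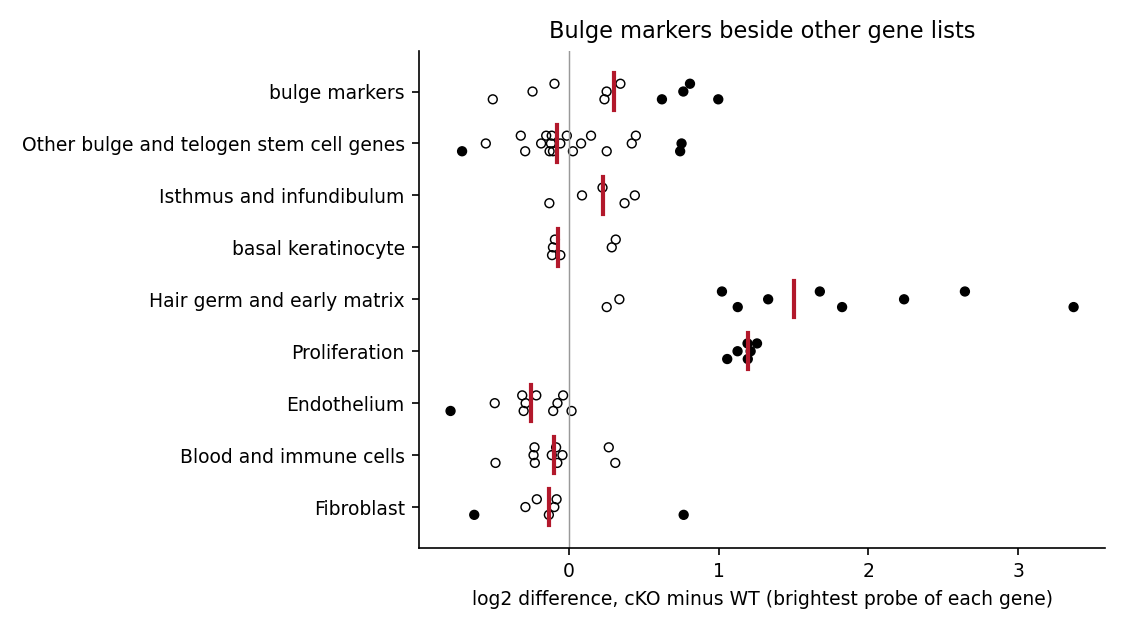
Log2 difference between cKO and WT for each gene, by its brightest probe, in the bulge markers and 8 other lists; filled circles are called genes, open circles are not, and red bars are list medians. The bulge markers have a median of 0.30, between the other bulge genes at -0.08 and the hair germ and early matrix genes at 1.5.

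Other genes known from the bulge and from resting stem cells, 20 of 21 of which were measured, were spread about 0. Of these, 2 rose and 1 fell, with a median of -0.08, beside 5.64% of 17555 genes called higher and 4.8% called lower by their brightest probe. Vdr, the vitamin D receptor that the hair cycle requires, rose 1.67-fold, with signals of 11260 and 11728 in cKO against 6087 and 6355 in WT. Tnc, a matrix protein, rose 1.69-fold by one probe (376 and 358 against 184 and 212), while its other probe had -0.12. Tnc was not called without cKO replicate 1 (log2 0.69, adjusted p = 0.0501; range over the alternatives 0.000325 to 0.0501) or with the mean of its probes (0.31). Npnt, encoding the basement membrane protein nephronectin, fell 1.64-fold and lost its call with the mean of its probes (-0.55) and with normexp and quantile normalization (-0.57). The summed signal of this list was 281 and 282 in cKO and 339 and 342 in WT, and without its bright genes S100a4 (log2 -0.55) and S100a6 (-0.19) it was 82.8 and 83.8 against 84.1 and 84.5. Lgr5, a receptor of bulge and germ cells, had 0.25.

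Genes of the hair germ and early matrix lay higher than the bulge markers. Of 10 measured, 8 rose and none fell, beside 5.64% of 17555 genes called higher and 4.8% called lower by their brightest probe. The median was 1.5, or 1.29 with Shh at its bound. Shh, a growth signal of the matrix, was at least 2.38-fold higher, since both WT signals failed the background test. Msx2 rose 6.25-fold, Lef1 4.72-fold and Gli1, a hedgehog target, 3.54-fold. The summed signal of the whole list was 12.7 on each cKO array against 7.76 and 7.5 in WT. The largest part of it came from Sostdc1, which was not called (log2 0.34). Its signals were 8602 and 8882 in cKO against 6240 and 6294 in WT, while those of Msx2 were 3214 and 3428 against 472 and 490. Cdh3, Runx1, Tbx1 and Lhx2 rose too, and some of them are also expressed in the growing follicle. The part of hair germ and matrix cells in those rises was not tested. Of 5 isthmus and infundibulum genes none was called by limma, 4 had an unadjusted p under 0.05, and the median was 0.22. By the stricter limma adjusted p under 0.05, 19.2% of all probes tested were higher and 31.1% lower. Lgr6, a dim gene of the isthmus with signals of 45 and 49 against 42 and 24, had 0.44 (adjusted p = 0.34). Its value rested on the WT array kept, at 0.0090 without WT replicate 2 and 0.87 without WT replicate 1, where alone it was called (adjusted p = 0.020; range over the alternatives 0.0203 to 0.895). The 2 brightest were Krt79 (0.09, but 0.28 with quantile normalization and 0.27 with normexp and quantile normalization) and Plet1 (0.37, adjusted p = 0.0049), and this list lies nearest to Lrig1 in the follicle.

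Among 27 partners, relatives and regulators of the markers, only Runx2 rose by its brightest probe, and none fell, with a median of 0.11. By the same rule 5.64% of 17555 genes were called higher and 4.8% lower, with a median of -0.05. The dimmer probe of Podxl fell (log2 -1.35). Both probes of Runx2 gave a similar value (log2 0.70 and 0.76), unlike those of Runx1. Runx2 was not called with normexp and quantile normalization (0.51). Ccnd1 and Cdk4, which drive entry into the cell cycle, of which NFATC1 is known to repress Cdk4, had 0.49 and 0.42, under the threshold. Blood and immune cell genes, in which RUNX1 and NFATC1 are also expressed, had a median of -0.10, and none of 10 was called by limma. Of these, 6 had an unadjusted p under 0.05. Over all probes tested, 19.2% were higher and 31.1% lower even at a limma adjusted p under 0.05. The 2 brightest blood and immune genes, Lyz2 and Cd52, had -0.11 and -0.23. Kit (0.31, limma adjusted p = 0.0073) and Cd3e (0.27, limma adjusted p = 0.14) went the other way. Lyz2 turned to 0.012 with normexp and quantile normalization and to 0.0092 with quantile normalization alone. The summed signal was 141 and 139 in cKO and 152 and 154 in WT.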

How the data were processed

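Arrays were scanned and quantified with Feature Extraction 10.7.3.1 on an mm9 design, per the file headers, and the deposited intensity after background subtraction and detrending was the starting value. The authors' processed values, which equalled that intensity over a constant of each array and so are a linear ratio (column medians 0.0983 to 0.101), served as an alternative. The basis of that constant was not given in the sources used. Control and outlier spots were left out, the 75th percentile of each array was subtracted on the log2 scale, spots of a probe were averaged, and a probe was kept if both arrays of a pool had it well above background (26070). No spot was saturated.

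Pools were compared per probe with limma 3.58.1 in R 4.3.3 (two-sided, Benjamini-Hochberg over all probes kept, no covariates). Lists used the brightest kept probe of a gene. A bound ("at least") sets the brighter mean against the lowest signal well above background. Symbols were updated through RefSeq on GRCm38.p6 (26690 probes by accession, 5189 by symbol, 952 by older symbol, 8343 kept). Probe coordinates are mm9, of which no gene models were used. All 4 arrays share 1 slide. The fit was tested on simulated data.

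The markers and lists were chosen with earlier results of these data known. Named were every probe of the 10 markers, up to 4 called genes of each list described or its 2 brightest, and Fgf18, Krt5 and Krt14. Kdr, S100a4, S100a6, Podxl, Lgr5, Lgr6, Lrig3, Ccnd1, Cdk4, Sostdc1, Awat2, Fabp4, Kit, Cd3e, Col1a1, Col1a2, Pdgfra and Thy1 were chosen after their values were seen. Plots were drawn with matplotlib 3.10.9.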

Additional observations from a re-analysis of the deposited data

How the results depend on the processing

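The 16 alternatives were other background correction and scaling, the authors' values, filters on dim probes, 1 value per gene, outlier spots kept, trend and robust moderation, leaving out each array in turn and a block for the replicate number. The count of marker probes that rose was 4 under all of them except the mean of a gene's probes and leaving out WT replicate 1, where it was 3. Over all probes 1283 were higher and 1252 lower. With normexp and quantile normalization the counts were 863 higher and 657 lower. With the mean of probes, where fewer features were tested, they were 974 and 827. Among probes well above background on all 4 arrays, 923 were higher and 1157 lower. In the list of partners 1 gene was called, against 0 with normexp and quantile normalization, 2 with the mean of probes and 1 to 2 when an array was left out. In the other bulge genes 3 were called with all 4 arrays, against 2 with normexp and quantile normalization and 1 with the mean of probes. Tnc was weaker without cKO replicate 1 (0.69 against 0.75 with all 4 arrays). In the isthmus list 0 were called with all 4 arrays, and Lgr6 depended on the WT array kept. The median of the other bulge genes, -0.08, was -0.0021 with normexp and quantile normalization and turned to 0.004 with quantile normalization alone. Among the genes followed across the alternatives, Krt15 (0.036), Krt5 (0.0018) and Lyz2 (0.012) changed sign with normexp and quantile normalization. Lyz2 also did so with quantile normalization alone (0.0092), and Sox9 with the mean of its probes (-0.042). The Runx1 probe A_52_P202358 ran from -0.076 to 0.18 when an array was left out and was negative without cKO replicate 2. The cause of these changes was not tested. Arrays shared only a replicate number: deviations of same-numbered arrays correlated at -0.020, and with the replicate as a block 1247 probes were higher and 1202 lower, with the same 4 marker probes called. Precision is limited by 2 arrays per pool.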
